A study of Sparus aurata with 53 samples.

Results

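The later part of the light phase was described in whole larvae of the gilthead sea bream (Sparus aurata) by setting 5 larvae collected at zeitgeber time 12 h (ZT12) against 6 larvae collected at ZT6, which are 11 of the 53 larvae of a 24-h series sampled at 9 times. Zeitgeber time counts hours from lights on, so the comparison spans the last 6 h of a 12 h light phase. No larva was chosen on its measured values, and all 13940 non-control probes of the array were tested. All larvae of both groups were untreated, 30 days old, reared at 19 °C under 12 h of light and 12 h of darkness, and fed live prey without restriction. Each array carried the Cy3-labelled RNA of 1 whole larva, so a change in a tissue's cell number and a change in RNA per cell cannot be told apart. The tank of each larva is not labelled, and the labels and the methods differ on whether 4 or 3 tanks were used.

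In vertebrates the daily clock is a feedback loop in which Clock and Bmal1 activate the period and cryptochrome genes, whose proteins then repress that activation. Cryptochromes also respond to light in fish, whose tissues are themselves light sensitive. In growing larvae many dividing cells pass through DNA synthesis and mitosis at preferred times of day, and feeding by sight confines food intake mostly to the light.

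Between ZT6 and ZT12, 234 probes changed (limma, adjusted p under 0.05), which is 1.68% of the probes tested. More fell than rose: 175 were lower at ZT12 (1.26% of all probes) and 59 were higher (0.423%). Levels are log2 intensities relative to the 75th percentile of the same array, so 0 marks a probe at that percentile, and a difference of 1 is a 2-fold change. The median absolute log2 difference of the probes that changed was 0.98, and 111 of them differed by at least 1, against a median absolute difference of 0.17 over all probes. The larvae of both times did not overlap at 149 of the 234 probes, which were chosen on these same larvae, whereas over all probes they did not overlap at 1.94%.

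Of the 234 probes, 57 belong to the 277 clones whose name in the study's tables was matched by clone code, called described clones here. The other 177, called undescribed, are given by clone code. The study's list of differentially expressed genes gives names without clone codes, so an undescribed clone is not necessarily unnamed in the study. Of the 277 described clones 50 fell and 7 rose. The described clones had been selected by the study on these samples, so their lists are not independent evidence of a direction. Replicates 1 to 4 of both times shared a slide in pairs. With slide as a block all 234 probes kept their call and 576 were called in total (4.13%), 184 higher (1.32%) and 392 lower (2.81%). On each of the 4 shared slides 208 of the 234 had the sign of the overall difference, as did 15.7% of all probes. The 234 were chosen on these same larvae, so that share is a description. Between 74.2% and 86.8% of probes were above background on the ZT12 arrays, against 76.8% to 84.1% on the ZT6 arrays, and no spot was saturated. Without ZT12 larva 6, which had the brightest of the 11 arrays and the only ZT12 array scanned in another batch, 142 probes were called, 35 higher and 107 lower (1 probe could not be fitted). Without ZT12 larva 4 the number that rose was 37. The median over all probes was 0.04, and of the tissue markers checked for retina, muscle, epidermis, intestine, inner ear and kidney, all 10 were above background in all 11 larvae.

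The largest increases among the described clones were in a regulator of Notch signalling and in ion cotransporters. Deltex-1 (C2_54553), an E3 ubiquitin ligase that modulates Notch receptors, measured 4.93, 4.66, 4.61, 4.77 and 5.09 in the ZT12 larvae, against a lowest value of 1.98, a median of 2.35 and a highest value of 2.62 in the ZT6 larvae. All ZT12 larvae lay far above all ZT6 larvae, and the log2 difference was 2.49 ± 0.22 (SE; 5.63-fold, adjusted p = 2.2e-11). Solute carrier family 12 member 1 (C2_1685), a sodium-potassium-chloride cotransporter of the mammalian kidney tubule, measured 2.40, 1.07, 1.36, 1.61 and 2.02 at ZT12, against -0.29 (lowest), 0.25 (median) and 0.74 (highest) at ZT6. Its groups did not overlap either, and it rose by 1.40 ± 0.29 (adjusted p = 0.0026). Its relative solute carrier family 12 member 2 (C2_21997), the secretory form of the same cotransporter, measured -0.89, -2.37, -2.09, -1.28 and -1.05 at ZT12, against -3.47, -2.67 and -2.34 (lowest, median and highest) at ZT6. Here 1 ZT12 larva lay within the ZT6 range, and the difference of 1.25 ± 0.31 (adjusted p = 0.018) was no longer past the threshold without any 1 of ZT12 larvae 1, 4 and 6 or ZT6 larvae 4 and 5 (adjusted p up to 0.091), with normexp, a background correction that compresses dim probes (0.28), or on the arrays of both times alone (0.11). The remaining described clones that rose were the cyclin-dependent kinase inhibitor cdkn1, the ubiquitin-related genes ubc and usp28, and the kinase TAO3 (C2_17492), at 0.51 (adjusted p = 0.035).

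**Figure D1:**
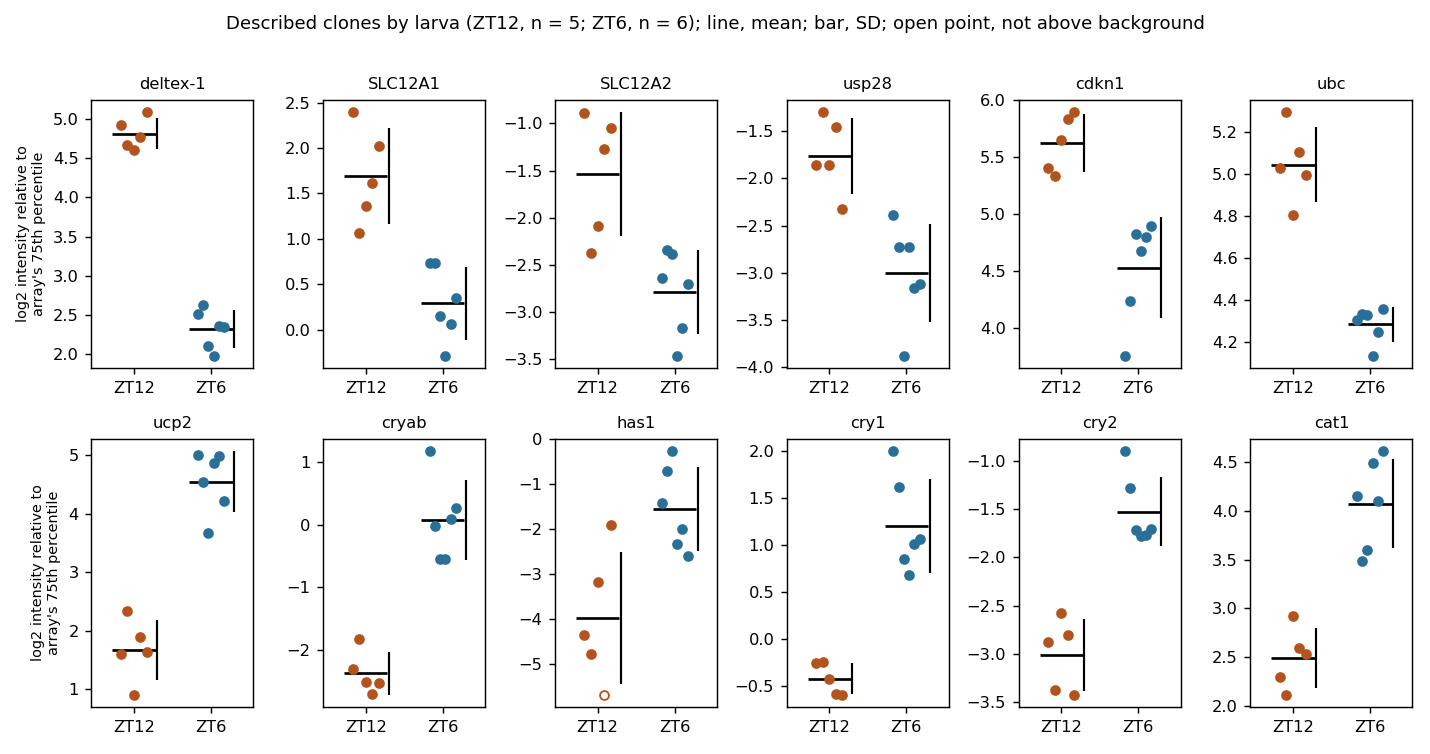
Log2 intensity relative to the array's 75th percentile (vertical axes, each with its own range) of 12 described clones in the single larvae of ZT12 (left, n = 5) and ZT6 (right, n = 6), with the mean as a line and the SD as a bar; open points were not above background. The 6 clones of the upper row were higher at ZT12 and the 6 of the lower row lower; the larvae overlap for SLC12A2 and has1, where ZT12 larva 6 lies at -1.91.

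Among the described clones of the clock, both cryptochromes fell and no other core gene passed the test. The study's list without clone codes names further genes that may belong to the clock. A class E basic helix-loop-helix protein, a group D nuclear receptor and ROR-beta-like have fold changes there like those of C3_c33852, C2_9994 and C3_c50623. Each of these undescribed clones fell (limma, adjusted p = 2.9e-16, 6.3e-06 and 8.4e-07). The match rests on fold changes alone and was not tested. Cryptochrome-1 (cry1, C2_13248), a repressor of the loop, ranged from -0.59 to -0.24 at ZT12 and from 0.69 to 2.00 at ZT6, a log2 difference of -1.62 ± 0.20 (3.07-fold lower, adjusted p = 3.0e-07). Cryptochrome-2 (cry2, C2_63385) ranged from -3.43 to -2.58 at ZT12 and from -1.78 to -0.90 at ZT6, a difference of -1.49 ± 0.20 (adjusted p = 1.5e-06). Both were lower on each of the 4 shared slides, with differences of -2.25 to -1.26 for cry1 and -2.10 to -0.86 for cry2. With normexp cry1 kept its call and cry2 did not (adjusted p = 0.41).

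The period genes, the other repressors of the loop, gave no call. Period 1 (C2_21343) averaged -3.14 ± 0.47 at ZT12 and -2.87 ± 0.29 at ZT6 (SD, n = 5 and 6; adjusted p = 0.95). The probe of period 2 (C2_58904) was not well above background in any of the 11 larvae, and that of period 3 (C2_44391) in 1 of them, so neither was compared further. Of the activators, clock (C2_26384) averaged -2.80 ± 0.91 at ZT12 and -3.59 ± 0.49 at ZT6 (adjusted p = 0.58), and bmal1 (C2_16398) averaged -3.55 ± 0.79 at ZT12 and -3.92 ± 0.29 at ZT6 (adjusted p = 0.98). In both, ZT12 larva 6 was the highest of all 11 larvae, at -1.31 for clock and -2.20 for bmal1.

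Of the accessory clock genes, cryptochrome DASH (C2_8882), a photolyase relative, fell by 0.97 ± 0.24 (adjusted p = 0.015), and the nuclear receptor ROR-gamma (C2_53107), of the family that activates bmal1 in mammals, fell by 0.89 ± 0.23 (adjusted p = 0.023). In both the larvae overlapped. The call of cryptochrome DASH ended without ZT12 larva 4 or 6 or ZT6 larva 1 (adjusted p up to 0.085), and that of ROR-gamma without ZT12 larva 1, 2 or 3 or ZT6 larva 3, 5 or 6 (up to 0.093). Neither was called with normexp or on the arrays of both times alone (adjusted p = 0.19 for cryptochrome DASH and 0.18 for ROR-gamma in that fit). Nocturnin (C2_4674), a rhythmic phosphatase, averaged -3.32 ± 0.46 at ZT12 and -2.79 ± 0.55 at ZT6 (adjusted p = 0.53).

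Over a 6 h interval at the end of the light phase, genes that copy DNA were among those that fell. Of the 24 clones listed for the G1/S transition and DNA replication, 13 fell and none rose, against 1.26% of all probes and 50 of 277 described clones lower; the median log2 difference of the list was -0.89, against 0.04 over all probes. The 13, chosen on these same larvae, were lower at ZT12 on each of the 4 shared slides. The larvae of both times did not overlap for 12 of them, against 1.94% of all probes. Proliferating cell nuclear antigen (pcna, C2_228), the sliding clamp of the replication fork, averaged 5.65 ± 0.34 at ZT12 and 6.78 ± 0.34 at ZT6, a difference of -1.13 ± 0.22 (2.18-fold lower, adjusted p = 0.0010). The replisome scaffold wdhd1 (C2_21008) differed most, by -1.28 ± 0.23 (adjusted p = 4.7e-04).

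The other members that fell included the polymerase subunits pole2 (-1.13), pold1 (-1.06) and pola1 (-1.02), the single-strand binding protein rpa1 (-1.05), the clamp loader subunits rfc3 (-0.80), chtf18 (-1.04) and chtf8 (-0.76), and the origin proteins orc5 (-0.99) and gins1 (-0.90). The retinoblastoma gene rb1, a brake on S-phase entry, fell by 0.64 with them. Cyclin E1 (ccne1, C2_91393), which drives entry into S phase, fell by 1.16 ± 0.29 (adjusted p = 0.021), with 3 of 5 ZT12 larvae above background and all 6 ZT6 larvae; without ZT12 larva 4 or ZT6 larva 5 it was not called (adjusted p up to 0.16), nor with normexp, nor on the arrays of both times alone (adjusted p = 0.11). The regulators cdk2, cdk4, ccnd1, ccnd2, e2f4 and tfdp1 lay between -0.33 and 0.06 and none was called. Leaving out single larvae gave 9 to 13 members that fell, and a fit on the arrays of both times alone gave 7 and normexp 2.

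Of 9 genes of DNA repair and the replication checkpoint, 4 fell and none rose, against 1.26% of all probes and 50 of 277 described clones lower. All 9 had negative differences, against 5970 of 13940 probes and 170 of 277 described clones, with a list median of -0.84. The checkpoint kinase chek1 (C2_11938), which restrains the cycle when replication stalls, averaged -0.87 ± 0.40 at ZT12 and 0.47 ± 0.15 at ZT6, a difference of -1.35 ± 0.24 (adjusted p = 2.9e-04). The helicase ddx11 (C2_26487) fell by 1.14 ± 0.23 and the DNA end-processing nuclease rbbp8 (C2_13531) by 1.08 ± 0.23 (adjusted p = 0.0022 and 0.0039); ddx11 was not called with normexp (adjusted p = 0.22).

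Of 17 genes of G2 and mitosis none was called by limma, against 7 at an unadjusted p under 0.05, all higher at ZT12, and 1 by the methods' Tukey test. Over all 13940 probes these numbers were 1247 and 327 in either direction. Of the 17, 15 had positive differences, against 7970 of 13940 probes and 107 of 277 described clones, and the list median was 0.40. With slide as a block 2 rose, against 1.32% of all probes and 14 of 277 described clones. The member with the lowest adjusted p was cdc20 (C2_7899), an activator of the anaphase-promoting complex, which averaged 1.01 ± 0.56 at ZT12 and 0.31 ± 0.18 at ZT6 (adjusted p = 0.077, and 0.046 with slide as a block). It passed the threshold without ZT12 larva 4 (adjusted p = 0.033). It did not pass without ZT12 larva 3 (adjusted p = 0.36), with normexp (0.145) or on the arrays of both times alone (0.33). The mitotic cyclins ccnb1, ccnb2 and ccnb3 lay at 0.66, 0.64 and 0.77, and cdk1 at 0.01. Cyclin-dependent kinase inhibitor 1 (cdkn1, C2_1055), the p21-type brake on cyclin-dependent kinases, measured 5.40, 5.33, 5.65, 5.83 and 5.89 at ZT12, against 3.76, 4.73 and 4.89 (lowest, median and highest) at ZT6. It rose by 1.09 ± 0.26 (2.13-fold, adjusted p = 0.012) with no overlap of larvae, and without ZT12 larva 6 its adjusted p was 0.051 and with normexp 0.25.

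Ribosome biogenesis genes had smaller differences. All 16 were negative, between -0.74 and -0.28, as were 5970 of 13940 probes and 170 of 277 described clones. Of the 16, 3 fell, against 1.26% of all probes, and close to the share of the described clones (50 of 277). The 3 were bop1 (C2_88702) at -0.59 ± 0.12, ccdc86 (C2_31305) at -0.62 ± 0.17 and nucleophosmin (npm1, C2_2403) at -0.52 ± 0.14, which all act in the nucleolus (adjusted p = 0.0029, 0.042 and 0.043). The number called depended on the fit. With slide as a block 15 fell, against 2.81% of all probes and 87 of 277 described clones. None fell in limma fits on the arrays of both times alone or with normexp. In the fit over all times all 16 were lower at an unadjusted p under 0.05, against 1247 of 13940 probes in either direction. The methods' Tukey test called 8, against 248 of 13940 probes lower. Single larvae also moved the number called by limma, to 11 without ZT12 larva 1, to 2 without ZT6 larva 3, and to 1 without any of ZT12 larvae 3, 4 and 6 or ZT6 larvae 4, 5 and 6. The calls of npm1 and ccdc86 ended without any 1 of ZT12 larvae 3, 4 and 6 or ZT6 larvae 3 to 6, and that of npm1 also without ZT12 larva 2 or ZT6 larva 1 or 2 (adjusted p up to 0.26 for npm1 and 0.36 for ccdc86).

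**Figure D2:**
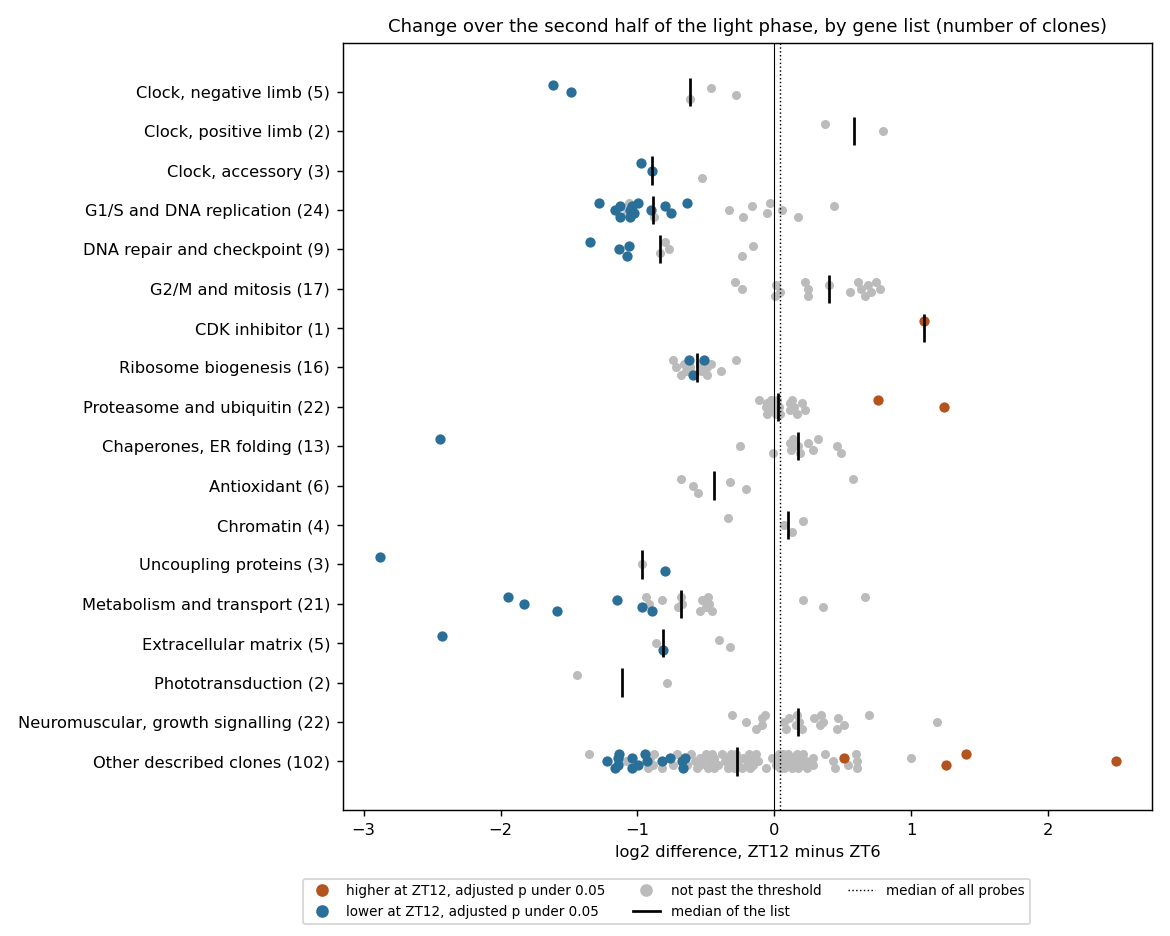
Log2 difference ZT12 minus ZT6 (horizontal axis) of the 277 described clones, 1 point a clone, in the 18 lists named on the vertical axis with their numbers of clones. Coloured points passed the limma test, black lines are list medians, and the dotted line is the median of all probes, 0.04; the DNA replication list lies to the left (median -0.89) and the G2 and mitosis list to the right (median 0.40).

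Protein turnover and folding genes moved singly. Among 22 clones of the proteasome and ubiquitin system, 2 rose, against 0.423% of all probes and 7 of 277 described clones higher: polyubiquitin-C (ubc, C2_6115), the main stress-responsive source of ubiquitin, averaged 5.05 ± 0.18 at ZT12 and 4.29 ± 0.08 at ZT6 (0.76 ± 0.13, adjusted p = 9.9e-05), and the deubiquitinase usp28 (C2_21971) ranged from -2.32 to -1.30 at ZT12 and from -3.88 to -2.38 at ZT6 (1.24 ± 0.26, adjusted p = 0.0039). Both were without overlap of larvae. With normexp neither was called (adjusted p = 0.0502 for ubc, and a difference of 0.54 for usp28), and usp28 was not called on the arrays of both times alone (adjusted p = 0.0595). The 20 others, among them all listed proteasome subunits, lay between -0.11 and 0.23.

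Of the 13 chaperone and endoplasmic reticulum folding clones, 1 was called, against 1.68% of all probes and 57 of 277 described clones. Alpha-crystallin B (cryab, C2_4364), a small heat shock protein of lens and muscle, measured -2.30, -1.82, -2.51, -2.70 and -2.53 at ZT12, against -0.55, 0.04 and 1.18 (lowest, median and highest) at ZT6. The lowest ZT6 larva was above the highest ZT12 larva, and the difference of -2.44 ± 0.22 was 5.44-fold (adjusted p = 3.4e-11). The other 12 lay between -0.25 (hsp70) and 0.48 (hsp90aa1). No antioxidant clone of 6 was called by limma or the methods' Tukey test, with 2 at an unadjusted p under 0.05 (the lowest adjusted p, 0.31, was that of heme oxygenase 2, C2_12708, at -0.59 ± 0.23), and none of 4 chromatin clones, with 1 at an unadjusted p under 0.05 (the lowest, 0.53, was that of prmt7, C2_10438, at -0.34 ± 0.17). Over all probes 1247 of 13940 had an unadjusted p under 0.05.

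The mitochondrial uncoupling proteins, carriers that let protons back across the inner membrane, fell in 2 of the 3 described clones. Of all probes 1.26% were lower, and of all described clones 50 of 277. The study's list without clone codes holds another uncoupling protein 2 entry, which is not in this list and whose fold changes there fall less between these times. Uncoupling protein 2 (ucp2, C2_60770) measured 1.60, 2.33, 0.90, 1.89 and 1.63 at ZT12, against 3.68, 4.71 and 5.01 (lowest, median and highest) at ZT6. This was the largest fall among the described clones, -2.88 ± 0.33 (7.38-fold, adjusted p = 4.2e-08), with differences of -3.40, -2.22, -2.78 and -2.99 on slides 1 to 4. Uncoupling protein 1 (ucp1, C2_5902) averaged 2.03 ± 0.19 at ZT12 and 2.83 ± 0.26 at ZT6 (-0.80 ± 0.20, adjusted p = 0.022), without overlap; its call ended without ZT12 larva 4 or 6 or ZT6 larva 1, 2 or 5 (adjusted p up to 0.082), with normexp (0.45) and on the arrays of both times alone (0.0502). Uncoupling protein 3 (ucp3, C2_22601), the muscle form, averaged -1.40 ± 1.34 at ZT12 and -0.43 ± 0.59 at ZT6, and its larvae overlapped (adjusted p = 0.51).

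Of 21 clones of metabolism and transport, 6 fell and none rose, against 1.26% of all probes and 50 of 277 described clones lower, with a list median of -0.68. Uridine phosphorylase 2 (upp2, C2_552), of pyrimidine salvage, averaged -1.58 ± 0.63 at ZT12 and 0.36 ± 0.67 at ZT6, a difference of -1.95 ± 0.37 (adjusted p = 8.8e-04). Tyrosine aminotransferase (tat, C2_3540), the first step of tyrosine breakdown in liver, averaged 0.81 ± 0.65 at ZT12 and 2.63 ± 0.32 at ZT6 (-1.83 ± 0.27, adjusted p = 9.0e-06). The high affinity cationic amino acid transporter 1 (cat1, C2_20564), which takes up arginine and lysine, averaged 2.49 ± 0.31 at ZT12 and 4.07 ± 0.46 at ZT6 (-1.58 ± 0.21, adjusted p = 1.0e-06). In all 3 the larvae did not overlap. The other 3 that fell were mat2, which makes S-adenosylmethionine (-1.15), isyna1, of inositol synthesis (-0.97, above background in 3 of 5 ZT12 larvae), and cyp27a1, a sterol hydroxylase of bile acid synthesis (-0.89). The glycolytic regulators pfkl and pfkfb2 lay at 0.21 and 0.36 and were not called.

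Of 5 matrix clones, 2 fell, against 1.26% of all probes and 50 of 277 described clones lower. Hyaluronan synthase 1 (has1, C2_14211), which makes the hyaluronan of the extracellular matrix, measured -4.36, -4.78, -3.17, -5.70 and -1.91 at ZT12, against -2.60, -1.71 and -0.26 (lowest, median and highest) at ZT6. In 4 of 5 ZT12 larvae it lay below all ZT6 larvae, and larva 6 lay within their range; the difference was -2.43 ± 0.43 (adjusted p = 3.0e-04), and the adjusted p was 0.145 in a fit on the arrays of both times alone and 0.22 with normexp. The collagen cross-linking enzyme loxl2 (C2_14996) fell by 0.81 ± 0.18 (adjusted p = 0.0078), with overlap, and was not called in those fits either (0.18 and 0.53).

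Of the described retinal and inner ear clones, only those of the inner ear were called. The phototransduction list held only 2 clones, so the other phototransduction genes that the study names are not covered. A further cone phosphodiesterase gamma entry in the study's list without clone codes has fold changes like those of C3_lrc63466. That undescribed clone fell and is given below. The match rests on fold changes alone and was not tested. The cone (C2_55059) and rod (C3_c26523) subunits gamma of the phototransduction phosphodiesterase averaged 4.03 ± 0.79 and 4.21 ± 0.15 at ZT12, and 5.47 ± 0.28 and 5.00 ± 0.24 at ZT6. In neither did the larvae overlap, yet neither was called in the fit over all times (adjusted p = 0.56 and 0.77), whose spread includes the other 7 times. Among these, ZT18 had an SD of 3.27 for the cone subunit and 2.36 for the rod subunit. In a fit on both groups alone the adjusted p was 0.063 for the cone subunit and 0.038 for the rod subunit. Beta-tectorin (C3_c27904), of the inner ear's tectorial membrane, fell by 1.14 (adjusted p = 6.6e-05), and a second beta-tectorin-like clone (C3_lrc16146) by 0.68 (adjusted p = 0.018).

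No neuromuscular or growth signalling clone of 22 was called by limma, with 4 at an unadjusted p under 0.05 and 1 called by the methods' Tukey test. Over all 13940 probes these numbers were 1247 and 327. The listed clone nearest the threshold was adenylate cyclase 7 (adcy7, C2_34121), of cyclic AMP signalling (adjusted p = 0.064, and 0.024 with slide as a block). It was above background in 4 of 5 ZT12 larvae and in none of the 6 ZT6 larvae. Its means were -4.61 at ZT12 and -5.79 at ZT6, and 1.69-fold apart with the dim ZT6 arrays raised as described below. The larvae overlapped, with ZT12 larva 4 at -5.56 below 3 of the ZT6 larvae, and on slide 4 the difference was -0.82. The adjusted p of adcy7 was 0.026 without ZT12 larva 4, 0.023 without ZT6 larva 4 and 0.033 without ZT6 larva 5. It was 0.22 without ZT12 larva 3 and 0.37 on the arrays of both times alone. With normexp adcy7 was not called, and its smallest difference under any alternative was 0.10. For the fold of 1.69 each ZT6 array took the higher of the probe's own value and the array's lowest value well above background. ZT12 larva 4, also dim, kept its measured value, so this fold is not a strict lower bound. The folds given further on for C3_c33852 and C3_c44906 treat the dim ZT12 arrays in the same way.

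Of the 102 other described clones, 15 fell and 4 rose, against 50 and 7 of all 277 described clones. Over all probes 1.26% fell and 0.423% rose. Of the 102, 9 fell without ZT12 larva 6, and 2 rose without ZT12 larva 1 or 4 or ZT6 larva 4 or 5. The 3 largest falls were in the meiotic nuclear division protein 1 homolog (C2_12578, -1.22 ± 0.26), the mitochondrial ATP-magnesium/phosphate carrier SCaMC-2-A (C2_81283, -1.16 ± 0.26) and the mitochondrial MOSC domain-containing protein 2 (C2_26959, -1.15 ± 0.18), with adjusted p of 0.0045, 0.0067 and 5.3e-05. None of the 3 overlapped between times, and C2_12578 and C2_81283 were not called with normexp (differences of -0.44 and -0.31). The mitochondrial protease YME1L1 (C2_6122) also fell, by 0.99 (adjusted p = 8.4e-07).

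The largest differences among the 234 probes were in clones with no name matched by clone code. For some, the study's list without clone codes has entries with like fold changes. They are L-serine dehydratase for C2_7164, a caspase for C2_12055 and an excitatory amino acid transporter for C3_c44906. Entries for a valiolone synthase resemble C3_c7419 and C3_c33078. C3_c33852, C3_c50623 and C3_lrc63466 were likened to other entries above. These matches rest on fold changes alone and were not tested. Others may be named there too. Of the 10 probes that rose most without overlap, 7 are undescribed, and of the 10 that fell most, 8 are. Of the 234 called probes 177 are undescribed, and of all 13940 probes 13663 are, so these counts do not set undescribed clones apart. C3_c33852 was above background in all 6 ZT6 larvae, at -2.08 to -1.69, and in none of the 5 ZT12 larvae, at -7.42 to -5.38, so that it was at least 12.7-fold lower at ZT12 (adjusted p = 2.9e-16); with normexp the difference was -1.09 and was not called (adjusted p = 0.0865). C2_7164 averaged 0.05 ± 0.73 at ZT12 and 3.65 ± 1.28 at ZT6, a difference of -3.60 ± 0.52 (adjusted p = 8.2e-06). On slide 3 that difference was -0.18, and on the other 3 shared slides it lay between -5.51 and -3.75.

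C3_c44906 was not well above background in any ZT12 larva and above it in 4 of 6 ZT6 larvae. With the ZT12 arrays raised to the lowest level well above background, and dim ZT6 larvae as measured, it was 2.32-fold lower at ZT12. Its means were -6.78 at ZT12 and -4.47 at ZT6 (adjusted p = 4.2e-06). C3_c33078 was above background in 2 of 5 ZT12 larvae and in all 6 at ZT6, and neither of these was called with normexp (differences of -0.31 for C3_c44906 and -0.62 for C3_c33078). The others that fell most, C2_12055, C3_c50623 and C3_c7419, lay between -2.61 and -2.10. C3_lrc63466, at -2.93, was called with all larvae in the fit (adjusted p = 0.045) and not without any 1 of the 11 (0.052 to 0.17). It was called with normexp (adjusted p = 1.4e-07) and on the arrays of both times alone (3.0e-04). Its SD was 3.94 at ZT18, a time outside this comparison that enters the main fit, against 0.64 at ZT12 and 0.27 at ZT6.

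Among those that rose, C2_46081 averaged -1.41 ± 0.64 at ZT12 and -5.39 ± 0.56 at ZT6 (3.98 ± 0.39, adjusted p = 5.7e-10), with 1 of 6 ZT6 larvae above background, so that the size of the difference rests on values near background; with normexp it was 1.41 (adjusted p = 3.1e-04). C3_c17046 averaged 0.37 ± 0.26 at ZT12 and -3.24 ± 0.39 at ZT6 (3.61 ± 0.40, adjusted p = 2.4e-08), and C2_58949 averaged 0.49 ± 0.67 at ZT12 and -2.37 ± 0.31 at ZT6 (2.86 ± 0.28, adjusted p = 5.2e-10). C2_20243 and C3_c42075 had differences of 2.70 and 2.06, with 1 and 3 of 6 ZT6 larvae above background, and with normexp of 0.59 and 0.51, which were not called; C3_c42075 was not called without ZT12 larva 4 or 6 or ZT6 larva 1, 3 or 4 (adjusted p up to 0.21). C2_10375 (1.42, and 0.72 with normexp, adjusted p = 0.0865) and C2_3656 (1.26) completed the group.

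**Figure D3:**
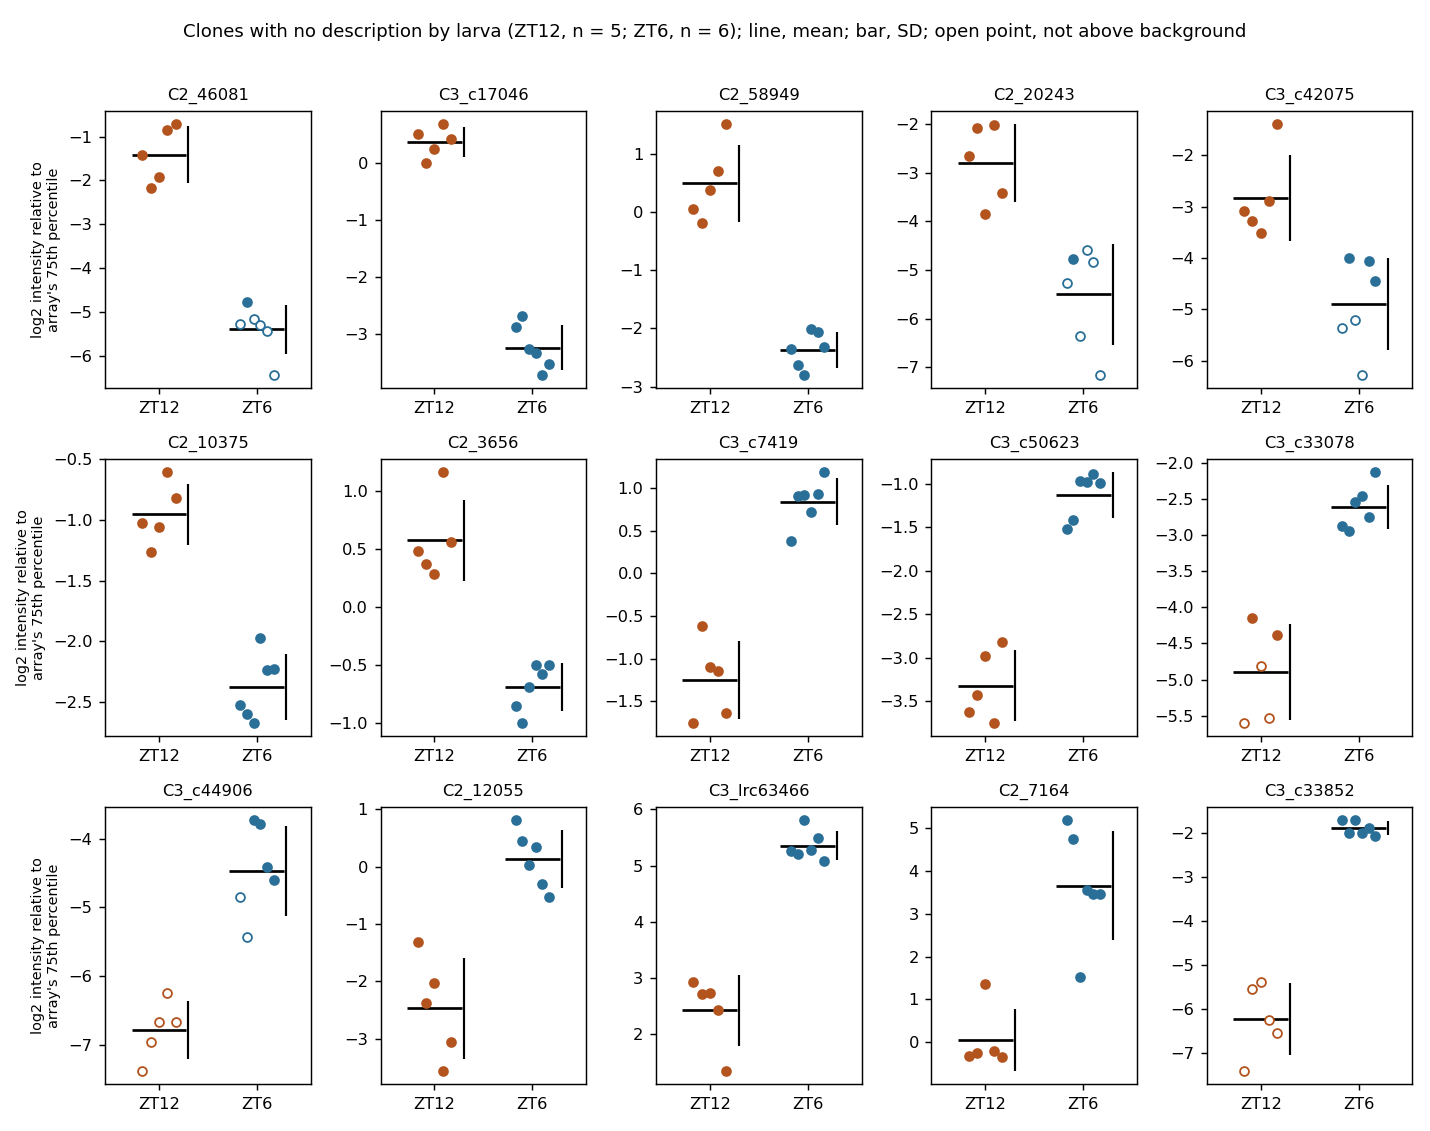
Log2 intensity relative to the array's 75th percentile (vertical axes, each with its own range) of the 15 undescribed clones among the probes that rose or fell most, in the single larvae of ZT12 (left, n = 5) and ZT6 (right, n = 6), ordered by difference, with the mean as a line and the SD as a bar. Open points were not above background: all 5 ZT12 larvae for C3_c33852 and C3_c44906, and 5 of 6 ZT6 larvae for C2_46081 and C2_20243.

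The larvae of ZT9 divided the interval. Few probes passed the test over 3 h: 17 between ZT6 and ZT9 (0.122% of all probes, 6 higher and 11 lower at ZT9, the lower ones 0.0789%) and 5 between ZT9 and ZT12 (0.0359%, 1 higher, 0.00717%, and 4 lower at ZT12). All of them were also called over the 6 h, a comparison that shares their ZT6 or ZT12 larvae. The 5 described clones called between ZT6 and ZT9 were deltex-1 (C2_54553, 1.51), ucp2 (-1.57), cryab (-1.52), cry1 (-1.06) and cry2 (-1.06). The 2 called between ZT9 and ZT12 were cat1 (-1.13 ± 0.21, adjusted p = 0.012) and YME1L1 (C2_6122, -0.63 ± 0.13, adjusted p = 0.034). C3_c33852 was called in both steps, at -2.55 and then to a ZT12 level not well above background, and C2_58949 was called in both, at 1.41 and then 1.45.

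At 231 of the 234 probes the ZT9 mean lay between those of ZT6 and ZT12, as at 42.2% of all probes; the 234 were chosen on those outer times, so the share is a description. By ZT9 the median probe of the 234 had made 53.4% of its change. For the DNA replication list the median difference was -0.29 from ZT6 to ZT9 and -0.43 from ZT9 to ZT12. For pcna the steps were -0.27 and -0.86, and for chek1 -0.49 and -0.86, and neither step was called for either gene. The undescribed clone C2_9994, likened above to a group D nuclear receptor on fold changes alone, turned within the interval. Its means were 2.65 at ZT6, 0.91 at ZT9 and 1.45 at ZT12. It was singled out after its values were seen. Its first step was called (-1.74, adjusted p = 5.0e-10) and its second was not (0.54, adjusted p = 0.60).

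**Figure D4:**
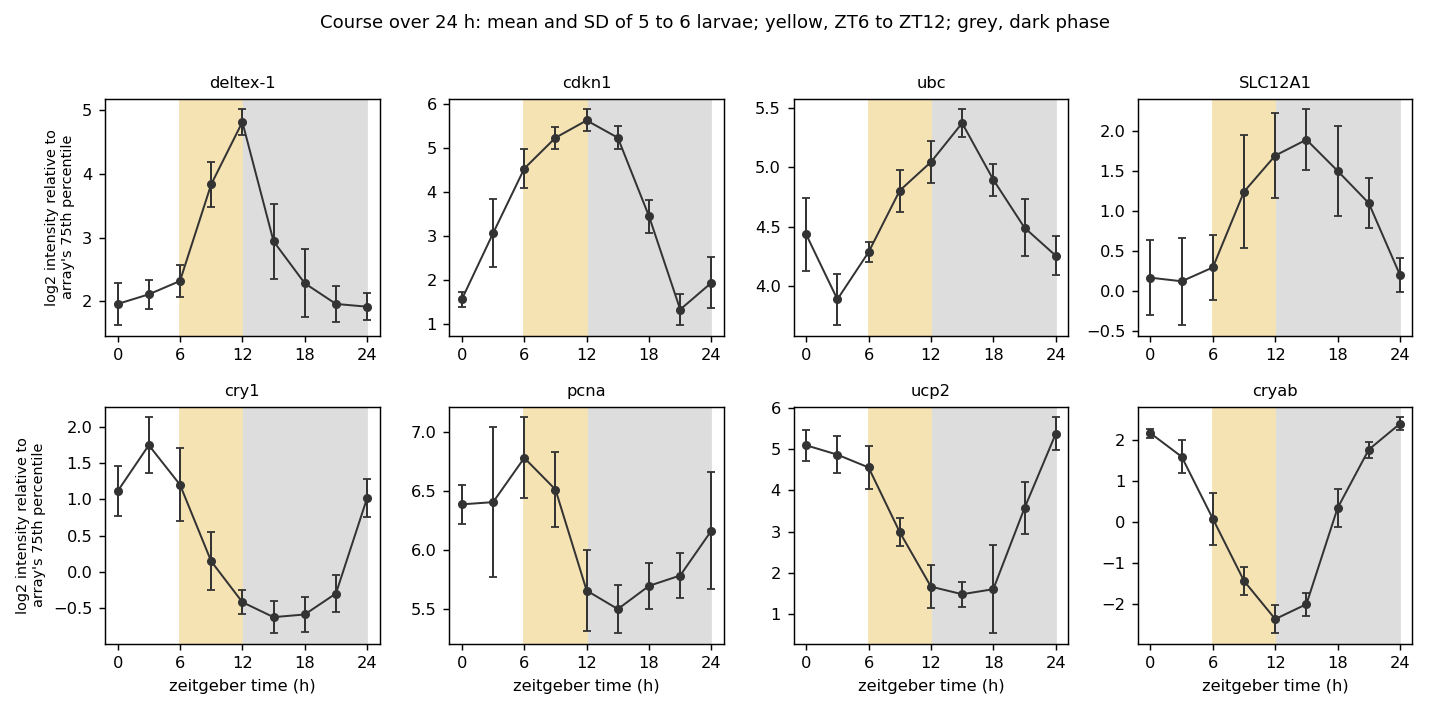
Log2 intensity relative to the array's 75th percentile (vertical axes) of 8 described clones against zeitgeber time in hours (horizontal axes), as mean and SD of the 5 or 6 larvae at each time; the yellow band is ZT6 to ZT12 and the grey band the dark phase. Deltex-1 has its highest mean, 4.81, at ZT12 and cryab its lowest, -2.37, while cry1, pcna and ucp2 have their lowest means at ZT15.

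The change from ZT6 to ZT12 was also tested against the change from ZT0 to ZT6, the earlier part of the light phase. The 2 changes differed at 56 probes (0.402%), 31 of them among the 234. Some of the 56 changed little in the later part and much, with a large error, in the earlier. An example is C3_c29376, with changes of 0.38 from ZT6 to ZT12 and 11.53 from ZT0 to ZT6 (difference -11.15 ± 2.69). Both changes share the ZT6 larvae, so a high or low value at ZT6 moves them in opposite directions. For cry1 the change was -1.62 from ZT6 to ZT12 and 0.09 from ZT0 to ZT6 (difference -1.71 ± 0.34, adjusted p = 0.0055), and for cry2 it was -1.49 and 0.16 (difference -1.65 ± 0.33, adjusted p = 0.0076). Likewise ucp2 changed by -2.88 and -0.54 (difference -2.35 ± 0.55, adjusted p = 0.037), pcna by -1.13 and 0.39 (difference -1.52 ± 0.36, adjusted p = 0.037), and cat1 by -1.58 and 0.43 (difference -2.02 ± 0.35, adjusted p = 6.7e-04).

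Deltex-1 (C2_54553) differed by 2.49 over the later 6 h and by 0.36 over the earlier 6 h (difference 2.13 ± 0.36, adjusted p = 6.4e-04), and ubc by 0.76 and -0.15 (difference 0.91 ± 0.21, adjusted p = 0.030). The inhibitor cdkn1 rose in both, by 1.09 in the later and 2.97 in the earlier part (difference -1.87 ± 0.43, adjusted p = 0.029). For cryab both changes were negative, -2.44 and -2.08, and their difference of -0.36 ± 0.37 was not called. With slide as a block 213 probes differed between the 2 parts, and with normexp 8 did.

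Over the next 6 h, in darkness, 247 probes were called (1.77%), with 1.09% of all probes higher at ZT18 than at ZT12 and 0.681% lower. Among the 175 that had fallen, 21 were higher at ZT18 than at ZT12 and 2 lower. Among the 59 that had risen, 3 were higher and 9 lower. These counts share the ZT12 larvae with the comparison that chose the probes, which moves both differences. Deltex-1 (C2_54553) was lower at ZT18 than at ZT12 by 2.53 (adjusted p = 6.5e-12) and cdkn1 by 2.18 (adjusted p = 6.9e-08), whereas cryab was higher by 2.71 (adjusted p = 1.4e-12), has1 by 2.98 (adjusted p = 5.6e-06) and upp2 by 2.02 (adjusted p = 3.4e-04). The ZT18 minus ZT12 difference was -0.17 for cry1, -0.06 for ucp2, 0.04 for pcna and -0.08 for tat, none of them called. Of the 175 probes that fell, 94 had their lowest mean of the day at ZT15 and 62 at ZT12; of the 59 that rose, 27 had their highest at ZT15 and 21 at ZT12. Among the 13 DNA replication genes that fell, 10 had their highest mean at ZT6 and 10 their lowest at ZT15. All these probes were chosen on their ZT6 and ZT12 values, so the counts of highest and lowest times are a description.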

How the data were processed

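RNA from each whole larva was Cy3-labelled and hybridised to 1-colour custom Agilent arrays, 1 larva an array. The authors extracted spot values with Agilent Feature Extraction 11.5.1.1, per the labels. The deposited intensity values are background-subtracted processed signals, with median foreground and background signals beside them. The authors' deposited value table holds log2 values shifted to each array's 75th percentile and centred per probe. It differed from the values computed here, centred alike, by a median of 0.0056 log2 and served as an alternative.

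Here log2 processed signals of the 13940 non-control probes (536 of 15744 spots are controls) were shifted to the array's 75th percentile. Outlier spots were left out (827 probe values missing) and spots of a probe averaged. limma 3.58.1 in R 4.3.3 was fitted to all 53 arrays in 9 groups (44 residual degrees of freedom), two-sided, with Benjamini-Hochberg adjustment over all probes and a threshold of 0.05. Errors of differences are standard errors of this fit, and those of means are SD. The number of arrays limits the precision. On simulated data the step on 13940 probes recovered 12%, 66%, 76% and 94% of planted ZT12 minus ZT6 differences of 0.5, 1, 1.5 and 2 log2.

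Described clones (277) take their names from the study's tables, matched by clone code. Undescribed clones are those with no such match, and the study's list of differentially expressed genes, which gives no clone codes, may name them. Clones and lists were chosen with earlier results of these data known. Named are: all members of the clock, uncoupling, inhibitor and phototransduction lists; the 3 strongest calls of each other list (6 of the last, or the lowest adjusted p where none passed); and the 10 probes that rose and the 10 that fell most without overlap. Names outside this rule, such as the other called members of a list, were picked with their values in view. The alternatives cover background correction, scaling, filters, batches, replicate numbers, single larvae and the methods' test. Mean signals are not among the columns used, so normexp was run on median signals. Some items are not reported here.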

Additional observations from a re-analysis of the deposited data

Results flagged for a closer look

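In 116 tests of the named clones for 1 larva far from the rest of its group (Dixon's test at 95%), 6 were flagged, and chance flags about 1 in 20 groups. At ZT12, larva 6 stood apart in 3 clones: it was the lowest for nucleophosmin (npm1, C2_2403) at -0.034 and for the cone phosphodiesterase subunit (C2_55059) at 2.64, and the highest for C3_c42075 at -1.38. Also at ZT12, larva 4 was the lowest for C2_26959 at -1.67, and larva 3 the highest for C2_7164 at 1.35. At ZT6, larva 3 was the highest for ddx11 (C2_26487) at -0.38.

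For 15 named clones the change from ZT6 to ZT12 differed from that from ZT0 to ZT6 by the test of the difference. Among the described clones the differences were 2.13 for deltex-1 (C2_54553), 0.91 for ubc, -1.87 for cdkn1, -1.71 for cry1, -1.65 for cry2, -2.02 for cat1, -1.83 for tat, -1.52 for pcna, -2.35 for ucp2 and -1.81 for SCaMC-2-A (C2_81283). Among the undescribed clones they were 4.50 for C2_46081, 3.06 for C2_58949, -3.65 for C2_7164, -4.26 for C3_c33852 and -3.95 for C3_c50623. The sizes for C2_46081 and C3_c33852 rest on levels near or below background, in 5 of 6 larvae at ZT6 and in all 5 at ZT12.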

How the results depend on the processing

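Of the 234 probes called between ZT12 and ZT6, all were called again with slide as a fixed block (576 called, 184 higher and 392 lower), slide as a random block (508; 142 and 366) and the replicate block (504; 144 and 360). Scan batch as a block gave 359 (93 and 266). The labels do not say that a replicate number marks a shared origin. Deviations from the group means correlated by 0.19 to 0.28 in 4 of the 5 shared numbers and by -0.04 in replicate 3. Only ZT12 larva 4 correlated best with its own number at ZT6 (0.23, against 0.13 for the highest other number). ZT12 larvae 1, 2, 3 and 6 correlated more with another number. The numbers, of which 1 to 4 coincide with shared slides, were not taken as pairs. Fewer were called on the arrays of both groups alone (103; 23 and 80), with normexp (63; 15 and 48), at an adjusted p under 0.01 (113; 26 and 87) and on the 8 arrays of shared slides with slide as a block (10; 4 and 6, chosen after seeing the data; 1 probe could not be fitted). Leaving out each larva in turn gave 142 to 259 probes (35 to 62 higher, 107 to 197 lower). The methods' analysis of variance with Tukey's test gave 327 (79 and 248), which include the 234. Counts under the other scalings, filters and the deposited table lay between 199 and 268. For ZT9 minus ZT6, slide as a block gave 69 probes, the replicate block 48 and normexp 4. For ZT12 minus ZT9 they gave 19, 7 and 0 (173 at an unadjusted p under 0.05 with limma). For the difference between the changes from ZT6 to ZT12 and from ZT0 to ZT6 they gave 213, 143 and 8, and quantile normalization gave 32. For ZT18 minus ZT12, where 247 probes were called, they gave 622, 492 and 134. Of the higher and lower ZT18 calls, 61.5% were higher, 51.1% with quantile normalization and 50.7% with normexp, which moved the median of all probes to 0.41.

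No named clone changed its direction past the threshold under any alternative. Of the 45 named clones called, 36 lost their call on the 8 arrays of shared slides, 23 with normexp, 12 on the arrays of both groups alone and up to 8 without a single larva. The causes were not tested. Values not well above background limit period 2, period 3, adcy7, C3_c33852, C3_c44906, C2_46081, C2_20243 and, in part of the larvae, C3_c33078, C3_c42075, has1, ccne1 and isyna1.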
